A study of Ovis aries with 8 samples.

Results

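The extracellular matrix genes on a sheep expression array were followed in fetal lungs infused with aldosterone and in control fetal lungs. Probes were chosen by the array's own annotation: the gene name had to be COL3A1 or MMP14, or the probe description had to hold 1 of 20 words such as collagen, fibulin, decorin, biglycan or matrix metallo, and ribosomal laminin receptor probes were left out. This gave 33 of the 15008 probes of the array, 30 by a word and 3 by the gene name alone, for 20 annotated products under 22 of the array's 14351 gene names. Products are counted by annotation, so COL3A1 and a probe only described as type III collagen count apart. Only 6 of the 20 words had a member, so elastin, fibrillins, laminins, nidogens, lysyl oxidases, tenascins, periostin and SPARC were not analysed here. After the filter on dim probes, 30 of the 33 were among the 12170 probes tested.

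The lungs came from sheep fetuses at about 130 days of a gestation of 147 days. In each of 4 sets of twins, 1 fetus received aldosterone, 0.2 mg in all, by an infusion of 48 hours begun 5 days after surgery, and the other was given vehicle. The 2 groups are thus 4 aldosterone lungs and 4 control lungs, each from a separate fetus, and surgery is common to both. RNA of each lung sample was labelled with Cy3 and hybridised to its own 1-colour array. The question put by the design is what an infusion of aldosterone changes in lung gene expression shortly before birth.

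The extracellular matrix is the scaffold that cells build around themselves. Fibrillar collagens give it tensile strength, type IV collagen forms the sheet of the basement membrane under epithelium and endothelium, fibulins belong to elastic fibres and basement membranes, and small proteoglycans such as decorin bind collagen fibrils. Matrix metallopeptidases cut these proteins, and in the lung before birth this remodelling goes along with the thinning of the walls between future air spaces. Aldosterone acts through the mineralocorticoid receptor and is best known for sodium transport in epithelia.

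Of the 33 probes, 24 could be given a symbol from a RefSeq table and 9 had only a description, which was copied from the similar protein of another mammal, and these are called here by the product described, as a cluster. The 4 probes of MMP14 and the 4 of type III collagen are shown because the results below differ between probes of 1 gene. Sequences are the 60-base probes as the scanner files hold them, and the files map none of them to the genome. In MMP14 the capitals mark the 29 bases that 2 probes share:
A_70_P050291: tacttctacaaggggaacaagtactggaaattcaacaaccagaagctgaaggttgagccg
A_70_P031016: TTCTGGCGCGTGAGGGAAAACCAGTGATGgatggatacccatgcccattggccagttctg
A_70_P031017: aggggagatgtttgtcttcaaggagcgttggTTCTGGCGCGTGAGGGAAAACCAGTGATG
A_70_P050426: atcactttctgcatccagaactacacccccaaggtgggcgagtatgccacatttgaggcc

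In type III collagen the capitals mark, in the first pair, each GG that falls every 9 bases, the trace of the glycine repeat of the collagen triple helix, and in the second pair the 58 bases that both share. The first line and the last pair are named COL3A1 and the line between is the collagen alpha-1(III) cluster:
A_70_P006991: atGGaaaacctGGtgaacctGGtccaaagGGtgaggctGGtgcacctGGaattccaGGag
A_70_P048191: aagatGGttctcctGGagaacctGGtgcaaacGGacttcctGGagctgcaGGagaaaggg
A_70_P016306: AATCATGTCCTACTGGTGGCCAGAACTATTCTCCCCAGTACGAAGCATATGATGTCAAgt
A_70_P016307: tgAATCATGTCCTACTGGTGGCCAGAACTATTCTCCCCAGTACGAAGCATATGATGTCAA

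The search motif for that repeat was GGNNNNNNNGGNNNNNNNGGNNNNNNNGG, on both strands. It was found in 6 of 15 collagen probes, in 0 of the 18 other matrix probes, and in 0.28% of all 15008 probes of the array. Probes with such repeats can resemble each other between collagens. No run of 25 or more bases was shared by probes of different matrix products. Probes were compared only with each other and not with whole transcripts, so this cannot show that a repeat probe reads 1 collagen alone. Both FBLN1 probes and both MMP1 probes overlap almost fully, by 56 and 59 bases, so each of these pairs is close to 1 measurement.

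The arrays measured most of these probes well. Between 76.49% and 85.41% of all spots on an array, and 30 or 31 of the 33 matrix probes, were well above background. No matrix spot was saturated or marked as an outlier by the scanner software. Aldosterone lung 2 lay at -41.71 on the second principal component of all probes, where the other 7 lungs lay between -10.84 and 22.19. Lungs are numbered by the replicate number of the labels, and lungs of the same number were taken as twins, which the labels do not state. Of the markers of the labelled tissue, the surfactant proteins SFTPA1, SFTPB and SFTPC of alveolar type II cells had probes 5.34 to 8.67 log2 units above the 75th percentile of the array in aldosterone lungs and 5.67 to 8.61 units above it in control lungs.

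No matrix probe passed limma's test after adjustment over all 12170 probes, and neither did any other probe of the array, which makes 0 calls among 30 matrix probes against a background of 0% (smallest adjusted p in limma = 0.9998). At an unadjusted p under 0.05, limma gave 1 matrix probe higher after aldosterone, 3.33% of the 30, against 1.28% of all probes, and 0 lower, against 0.6%. The 1 probe was for MMP14, which the rule names, and the list was chosen with earlier results of these data known. With the twin pairs as a block, 5 matrix probes had an unadjusted p under 0.05 on the higher side, 3 of MMP14 and the overlapping pair of FBLN1, against 2.8% of all probes, and 0 on the lower side, against 1.62%. The adjusted p of every matrix probe stayed at or above 0.879 in that fit. The median standard error of the matrix probes was 0.22 without the block and 0.14 with it, and of all probes 0.20 and 0.14. Errors, intervals and p-values below come from the fit without pairs, unless a block or the pairs are named.

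In size, 23 of the 30 matrix probes had a higher mean in aldosterone lungs, against 51.4% of all probes. The median difference over the 30 was 0.17 on the log2 scale, and over all probes it was 0.01. By twin pair the matrix median was 0.11, 0.25, 0.18 and 0.12, where the median of all probes was -0.0024, -0.030, 0.0042 and 0.05. Each probe's deviation from its mean over the 8 lungs was also taken. The matrix median of these was 0.15, 0.12, -0.07 and 0.17 in aldosterone lungs. In control lungs it was -0.03, -0.08, -0.19 and 0.04, so single lungs of the groups overlapped. The aldosterone twin was the higher one on 20, 18, 20 and 20 of the 30 probes, against 49.6%, 46.0%, 50.4% and 57.5% of all probes. Within the 2 rows of the slide, each of which held 2 pairs, the matrix medians were 0.13 and 0.12. The number of higher probes was 21 after normexp and quantile normalization, 21 with arrays centred on their medians and 19 in the authors' deposited values. In these settings the median of all probes was lower too, at -0.0031, -0.031 and -0.050, where the matrix median was 0.081, 0.13 and 0.11. The median log2 range over the 8 lungs was 0.95 for matrix probes and 0.82 for all probes. These figures describe the list and were not tested, and the 30 probes include several for 1 gene. With 1 probe per gene the matrix median difference was 0.14.

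**Figure D1:**
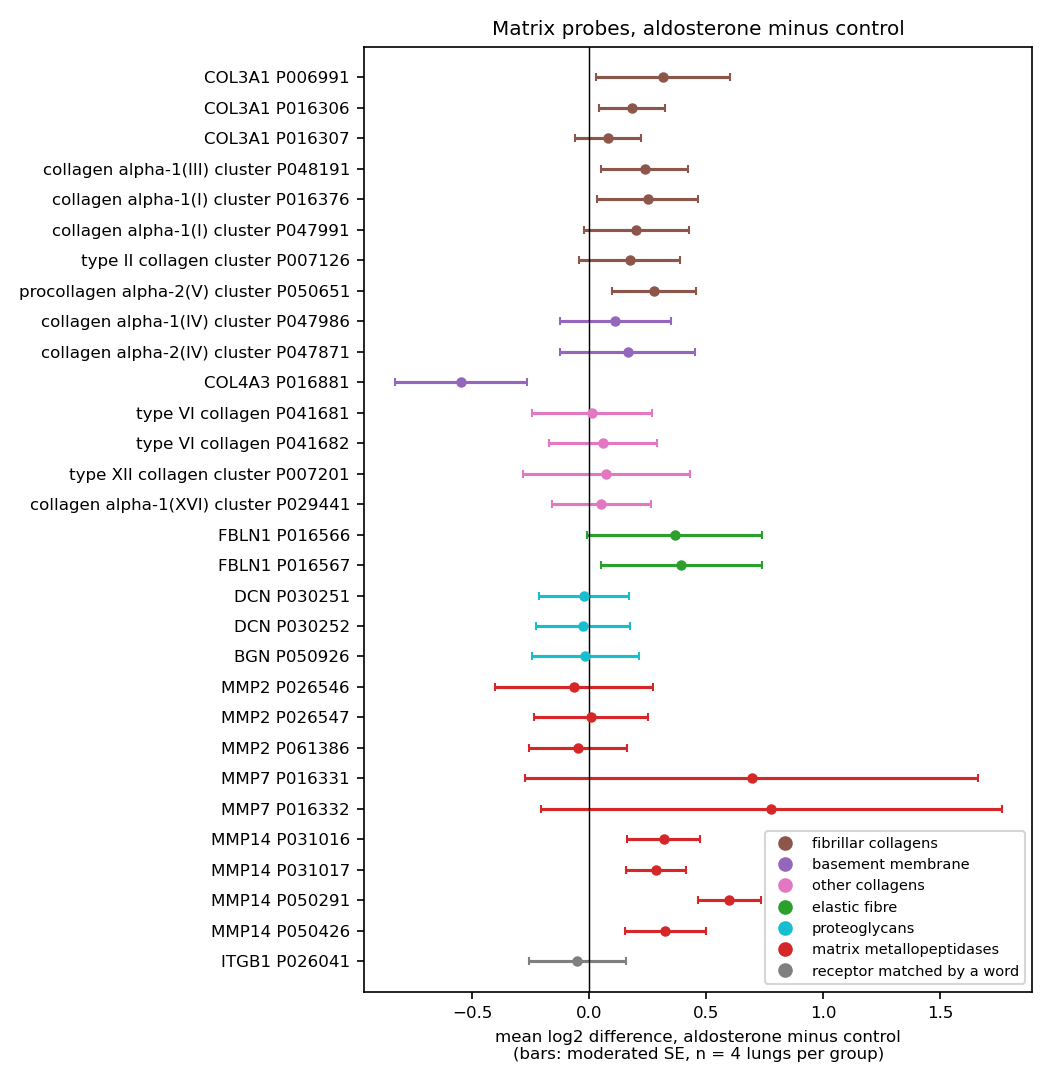
Mean log2 difference, aldosterone minus control, of the 30 matrix probes tested, coloured by role, with limma's standard error as bars (4 lungs per group). The 8 fibrillar collagen probes and 4 MMP14 probes lie right of 0, the 3 proteoglycan probes lie close to 0, COL4A3 lies lowest and MMP7 has the widest bars.

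Matrix metallopeptidases were measured by 12 probes for 5 genes, and 9 probes for 3 genes passed the filter. MMP14 is the membrane-anchored enzyme that cuts fibrillar collagen at the cell surface and activates MMP2. On probe A_70_P050291 its log2 signal relative to the 75th percentile of the array, the scale of all levels given here, was -4.30, -4.33, -4.41 and -4.64 in aldosterone lungs 1 to 4, against -4.93, -4.99, -4.96 and -5.19 in control lungs 1 to 4. Every aldosterone lung lay above every control lung. The mean difference was 0.60 ± 0.13 (SE, n = 4 per group), a 1.51-fold level, with a 95% interval of 0.29 to 0.90 and an unadjusted p of 0.00167 in limma, which did not pass over all probes (adjusted p in limma 0.9998). By twin pair the differences were 0.64, 0.66, 0.55 and 0.55.

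The other 3 MMP14 probes gave smaller differences of the same sign. Probe A_70_P031017, the one with the highest signal, had -3.75, -3.69, -3.69 and -3.76 in aldosterone lungs, against -4.22, -4.05, -3.85 and -3.91 in control lungs, again without overlap, and a difference of 0.28 ± 0.13. All 4 aldosterone lungs above all 4 controls was seen on 2 of 30 matrix probes, both of MMP14, against 0.83% of all probes, and all 4 below on 0 of 30, against 0.477%. Probe A_70_P031016, which shares 29 bases with the one before, ran from -5.12 to -4.73 in aldosterone lungs and from -5.49 to -5.05 in control lungs, with a difference of 0.32 ± 0.16. Probe A_70_P050426 ran from -4.94 to -4.54 in aldosterone lungs and from -5.35 to -4.74 in control lungs, with a difference of 0.32 ± 0.17. On these 2 probes the groups overlapped, but the aldosterone twin was the higher one in all 4 pairs on each of the 4 probes. A higher aldosterone twin in all 4 pairs was found on 7 of 30 matrix probes, against 7.57% of all probes, and a lower one on 0, against 5.7%. The 7 were the 4 probes of MMP14, the overlapping pair of FBLN1 and the collagen alpha-1(III) cluster. They are thus not 7 separate genes, and the 30 probes stand for 18 annotated products, where COL3A1 and the collagen alpha-1(III) cluster count apart. MMP14 was named in the rule, and the list was chosen with earlier results of these data known. An excess over the share of all probes therefore cannot be read from these counts.

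MMP14 signal was dim on each probe, though well above background on all 8 arrays. After normexp and quantile normalization, where a constant is added to each spot, the differences on all 4 probes were smaller, at 0.19 on A_70_P050291, 0.11 on A_70_P031017, 0.097 on A_70_P031016 and 0.055 on A_70_P050426. On A_70_P050291 the difference ran from 0.54 to 0.67 when single lungs were left out.

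**Figure D2:**
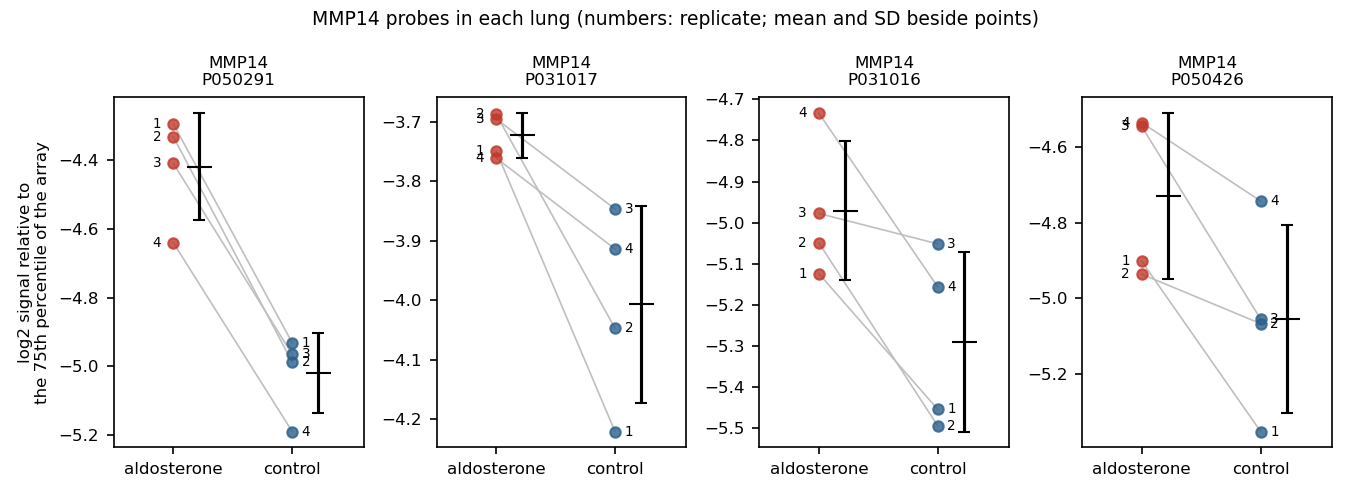
Log2 signal of the 4 MMP14 probes relative to the 75th percentile of the array in each lung, aldosterone left and control right, with grey lines joining same-numbered twins and the mean and SD of each group beside its points. The aldosterone twin is higher in all 4 pairs on every probe, and the groups do not overlap on A_70_P050291 and A_70_P031017.

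MMP2, gelatinase A, the secreted enzyme that MMP14 activates, had 3 probes and no difference beyond its error. Probe A_70_P026547 gave 0.29, -0.41, -0.33 and -0.27 in aldosterone lungs, against 0.28, -0.02, -0.27 and -0.74 in control lungs. The groups overlapped over nearly their whole range, and the difference was 0.01 ± 0.25 with a 95% interval of -0.55 to 0.56. The other MMP2 probes gave -0.07 ± 0.34 and -0.05 ± 0.21, and the 3 differed in sign. Pairs 2 and 3 had the lower value and pair 4 the higher value in the aldosterone twin on all 3 probes, with differences on A_70_P026547 of -0.39, -0.06 and 0.47.

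MMP7, matrilysin, an enzyme made mainly by epithelial cells, differed more between single lungs than any other matrix gene measured here. Its probe A_70_P016332 had -4.15, 0.50, -4.31 and -2.41 in aldosterone lungs, against -3.18, -4.12, -3.91 and -2.27 in control lungs. Aldosterone lung 2 alone stood far above the other 7, at 6.82 times the linear signal of the next lung, and in the other 3 pairs the aldosterone twin was the lower one. The second probe, which shares no run of 25 bases with the first, gave -4.85, -0.19, -4.74 and -2.71 in aldosterone lungs, against -3.79, -4.60, -4.23 and -2.65 in control lungs, with the same lung on top. Both probes had a wider range over the 8 lungs than 99.4% of all probes. The mean differences were 0.78 ± 0.98 and 0.69 ± 0.97, and on A_70_P016332 the value was -0.25 without aldosterone lung 2, 1.30 without aldosterone lung 1 and 1.35 without aldosterone lung 3. MMP1, interstitial collagenase, was not well above background on any array, and MMP13, collagenase 3, was so on 1 aldosterone and 2 control arrays, so neither was tested.

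Fibrillar collagens were measured by 8 probes, all of which had a higher mean in aldosterone lungs, with differences of 0.08 to 0.31 and a median of 0.22. None had an unadjusted p under 0.05 in limma, and the 8 stayed on the higher side under each alternative and without each single lung. COL3A1, type III collagen of distensible tissues such as lung and vessels, had on probe A_70_P006991 0.28, 0.14, -0.25 and 0.09 in aldosterone lungs, against 0.59, -0.52, -0.81 and -0.25 in control lungs. Control lung 1 was the highest of all 8, and the aldosterone twin was the higher one in pairs 2, 3 and 4. The difference was 0.31 ± 0.29, with a 95% interval of -0.33 to 0.96, and it was 0.59 without control lung 1 and 0.13 without control lung 3.

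On the other type III probes the differences were smaller and the lungs closer together. The pair of overlapping COL3A1 probes gave 0.18 ± 0.14 and 0.08 ± 0.14, and ranged over the 8 lungs by 0.45 on each, against 1.39 on A_70_P006991. The first of the pair, A_70_P016306, had -1.05, -0.82, -0.90 and -0.86 in aldosterone lungs, against -1.26, -1.20, -1.09 and -0.81 in control lungs. The collagen alpha-1(III) cluster had -0.16, -0.26, -0.54 and -0.19 in aldosterone lungs, against -0.25, -0.64, -0.92 and -0.28 in control lungs, higher in the aldosterone twin of all 4 pairs, with a difference of 0.24 ± 0.18, or 0.10 without control lung 3. The probes of type III collagen thus ordered the lungs differently: control lung 1 was the highest of the controls on 2 probes and the lowest on the overlapping pair.

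The collagen alpha-1(I) cluster, the main collagen of most connective tissue, had -1.31, -0.87, -1.15 and -0.71 in aldosterone lungs, against -1.26, -1.67, -1.33 and -0.78 in control lungs on probe A_70_P016376, a difference of 0.25 ± 0.22. This was 0.11 without control lung 2, 0.15 without aldosterone lung 4 and 0.41 without control lung 4. Its second probe gave 0.20 ± 0.22. Pair 2 carried most of both, with differences of 0.80 and 0.77, while pair 1 had the lower value in the aldosterone twin. The procollagen alpha-2(V) cluster, a chain that joins type I fibrils and limits their width, had 0.83, 0.74, 0.55 and 1.02 in aldosterone lungs, against 0.89, 0.37, 0.23 and 0.54 in control lungs. It was higher in the aldosterone twin of 3 pairs, with a difference of 0.28 ± 0.18, which was 0.18 without control lung 3 and 0.41 without control lung 1. The type II collagen cluster, the collagen of cartilage such as that of the airways, gave 0.17 ± 0.22. A probe outside the list for COL2A1, the gene of type II collagen, had the opposite sign, at -0.29 ± 0.89.

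**Figure D3:**
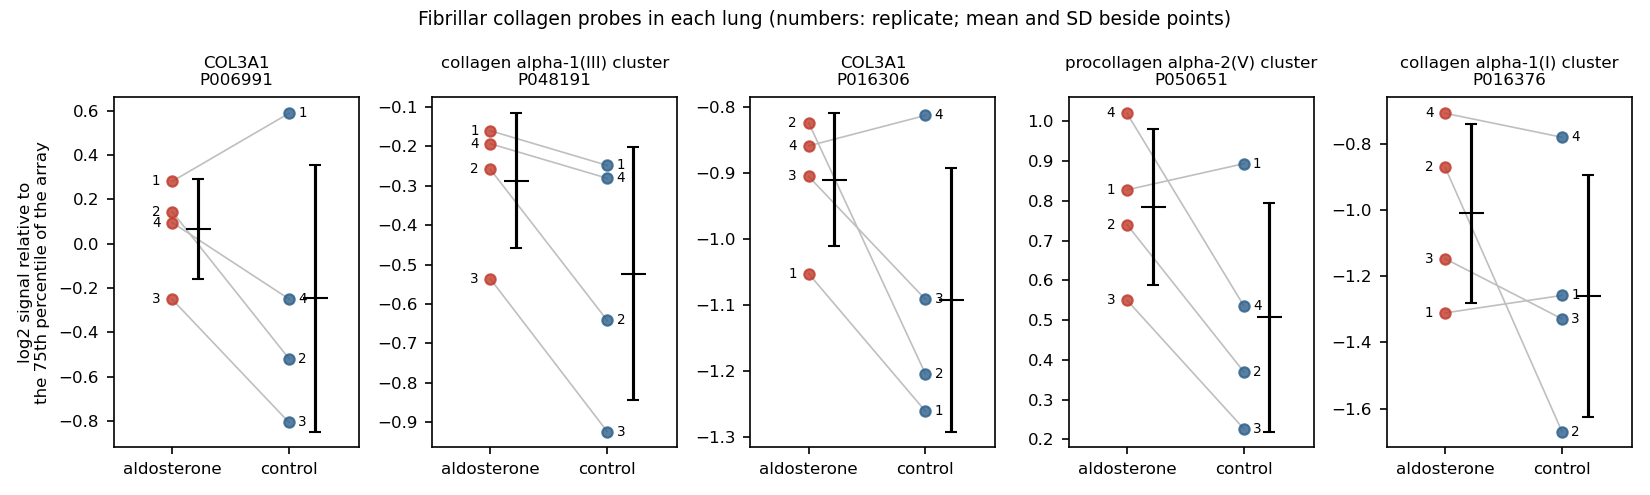
Log2 signal of 5 fibrillar collagen probes relative to the 75th percentile of the array in each lung, aldosterone left and control right, with grey lines joining same-numbered twins and the mean and SD of each group beside its points. The groups overlap on each probe, and the collagen alpha-1(III) cluster is higher in the aldosterone twin of all 4 pairs.

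Of the basement membrane collagens, COL4A3 had the lowest difference of all matrix probes. This chain belongs to the type IV collagen of mature basement membranes such as those of the alveolus and glomerulus. It had 1.05, -0.40, -0.01 and -0.05 in aldosterone lungs, against 0.62, 0.83, 0.58 and 0.74 in control lungs. Aldosterone lungs 2, 3 and 4 lay below every control lung and aldosterone lung 1 above every one, so the SD was 0.63 in aldosterone lungs and 0.11 in control lungs. The difference was -0.55 ± 0.28 (95% interval -1.19 to 0.09, unadjusted p = 0.0848 in limma, n = 4 per group). Without aldosterone lung 1, the lung that went against the difference, it was -0.85 ± 0.16 (adjusted p 0.935 in limma). Without aldosterone lung 2 it was -0.37 ± 0.27, and without any other single lung it lay between these values.

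The ubiquitous chains of type IV collagen differed from their control by less than their errors. The collagen alpha-1(IV) cluster had -0.95, -1.69, -1.07 and -0.58 in aldosterone lungs, against -1.36, -1.21, -1.29 and -0.87 in control lungs, a difference of 0.11 ± 0.24. The collagen alpha-2(IV) cluster, whose protein pairs with alpha-1 in 1 molecule, had -1.64, -2.24, -1.38 and -0.80 in aldosterone lungs, against -1.88, -1.77, -1.77 and -1.29 in control lungs, a difference of 0.16 ± 0.29. On both, aldosterone lung 2 was the lowest of all 8 lungs and aldosterone lung 4 the highest. Both differences turned negative without aldosterone lung 4, at -0.05 and -0.07, and were 0.32 and 0.40 without aldosterone lung 2.

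Collagens of other classes were represented by 4 probes for 3 products. Their differences of 0.01 to 0.07 were all smaller than their standard errors of 0.21 to 0.36. The type XII collagen cluster, a collagen that coats fibrils, had 2.34, 1.83, 1.21 and 1.13 in aldosterone lungs, against 2.07, 2.08, 0.99 and 1.09 in control lungs. Lungs 1 and 2 of both groups were high and lungs 3 and 4 of both groups low, and these pairs also lay in different rows of the slide. The difference was 0.07 ± 0.36, and the standard error with the twin block was 0.13. Type VI collagen, which forms beaded filaments around cells, gave 0.06 ± 0.23 and 0.01 ± 0.26 on its 2 probes, which the array names COL6A1 while describing the alpha-3 chain. The collagen alpha-1(XVI) cluster gave 0.05 ± 0.21. Of these 4 probes 1 was higher in the authors' deposited values, 2 with array weights and 3 with arrays centred on their medians or after normexp and quantile normalization.

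FBLN1, fibulin 1, a glycoprotein of elastic fibres and basement membranes, differed more between twin sets than between the twins of a set. Probe A_70_P016566 had -0.48, -0.53, -1.07 and -1.62 in aldosterone lungs, against -0.57, -1.09, -1.27 and -2.23 in control lungs. The aldosterone twin was the higher one in each of the 4 pairs, by 0.09, 0.57, 0.19 and 0.61, while the groups overlapped widely. In both groups lungs 1 and 2 lay above lungs 3 and 4, which were in the other row of the slide. Twin set and slide row thus cannot be told apart here. The difference was 0.36 ± 0.37 without the pairs and 0.36 ± 0.14 with them, where the unadjusted p in limma was 0.0383 and the adjusted p 0.879. With the slide row as a block the standard error was 0.24. The second FBLN1 probe gave 0.39 ± 0.34, or ± 0.14 with the pairs. The difference on A_70_P016566 was 0.16 with array weights, 0.05 without control lung 4, which had the lowest value, 0.22 and 0.23 without aldosterone lungs 1 and 2, and 0.60 without aldosterone lung 4 or control lung 1.

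Proteoglycans were measured by 3 probes, whose differences were all smaller than their standard errors. Decorin (DCN), which binds collagen fibrils and regulates their assembly, had on probe A_70_P030251 4.26, 4.87, 4.00 and 4.33 in aldosterone lungs, against 4.36, 4.56, 4.29 and 4.33 in control lungs. Its difference was -0.02 ± 0.19 with a 95% interval of -0.46 to 0.41, and the second DCN probe gave -0.03 ± 0.20. Biglycan (BGN), a close relative of decorin, had 0.17, -0.11, -0.49 and -0.37 in aldosterone lungs, against 0.01, 0.01, 0.03 and -0.78 in control lungs, a difference of -0.02 ± 0.23. ITGB1, the integrin chain shared by many matrix receptors, entered the list through the word fibronectin in its description and gave -0.05 ± 0.21.

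**Figure D4:**
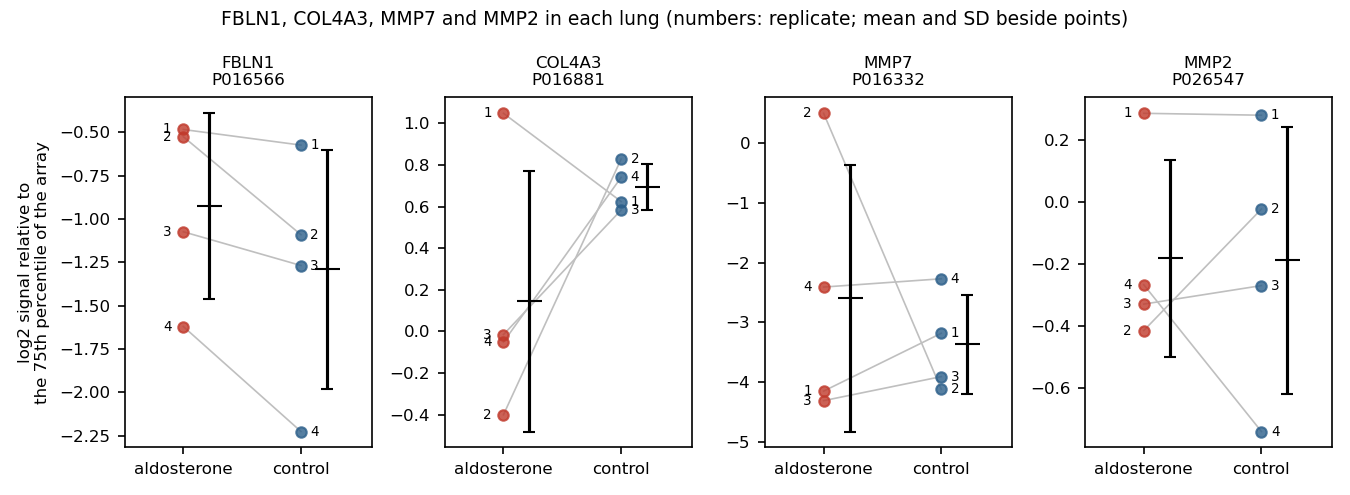
Log2 signal of FBLN1, COL4A3, MMP7 and MMP2 relative to the 75th percentile of the array in each lung, aldosterone left and control right, with grey lines joining same-numbered twins and the mean and SD of each group beside its points. FBLN1 is higher in the aldosterone twin of all 4 pairs, COL4A3 is low in 3 of 4 aldosterone lungs, and MMP7 is high in aldosterone lung 2 alone.

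Of 43 genes that regulate, bind or cut the matrix and are not among the members, 13 were measured by a probe with a symbol. Only 1400 of the 15008 probes could be given a symbol, so others of the 43 may be on the array without one. Of the 13, 7 had a higher and 6 a lower mean in aldosterone lungs, with a median difference of 0.00. None of the 13 had an unadjusted p under 0.05 in limma, against 1.88% of all probes. PLAU, the urokinase that starts plasmin formation at the cell surface, gave 0.46 ± 0.26, and its receptor PLAUR gave 0.30 ± 0.39. The lysosomal protease CTSB gave 0.33 ± 0.18. TGFB1, a main inducer of collagen genes, gave -0.01 ± 0.16, TGFB2 -0.16 ± 0.33 and TGFB3 0.15 ± 0.24. SMAD3, a transcription factor that carries this signal, gave -0.46 ± 0.34 on a dim probe, with mean levels of -6.76 in aldosterone and -6.30 in control lungs. Of the receptors, TGFBR2 gave 0.23 ± 0.21 and TGFBR1 0.41 ± 0.36, with -0.32 on its other probe. SMAD2 gave -0.02 ± 0.17 and SMAD7 -0.06 ± 0.37. The integrin chains ITGA5 and ITGAV gave -0.15 ± 0.37 and 0.00 ± 0.15.

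In RNA of lung tissue, more matrix-producing cells and more RNA per cell cannot be told apart. Among marker genes of cells that could hold these transcripts, VIM of mesenchyme gave 0.16 ± 0.14, COL1A2 0.21 ± 0.23, FGF10 and FGF7 of lung mesenchyme -0.26 ± 0.17 and -0.15 ± 0.25, and CNN1 of smooth muscle -0.10 ± 0.19. The summed linear signal of the 4 measured fibroblast and mesenchyme markers ran from 114.5 to 157 times the 75th percentile in aldosterone lungs and from 110 to 131.4 times in control lungs. That sum is almost wholly VIM, and 2 of the 4 markers had a higher and 2 a lower mean in aldosterone lungs. The 2 macrophage markers summed to 0.239 to 0.454 in aldosterone lungs and 0.229 to 0.339 in control lungs, with CD14 at 0.42 ± 0.23 and CYBB at 0.47 ± 0.38. None of these markers had an unadjusted p under 0.05 in limma. Their part in the values of the matrix probes was not tested.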

How the data were processed

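Gene expression was measured on 8 Agilent 1-colour sheep arrays, 1 per lung, from 450 ng of total RNA each. In the scanner files that the authors deposited, each spot has a linear intensity. Per the file headers and the submitters' processing notes they come from version 10.1.1.1 of Agilent Feature Extraction, with spatial and multiplicative trends removed, surrogates in use for low spots and global background correction off. A second table deposited by the authors has log2 values for 12762 spots, each array's values differing from its log2 processed intensity by a single constant and having a median of 0.

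Here, each array's 75th percentile was subtracted from its log2 processed signals, outlier spots (74 values, none of a matrix probe) were left out, and spots of a probe were averaged to 15008 probes. A probe was kept if at least 4 of 8 arrays had it well above background. Groups came from the sample labels, and were compared with limma 3.58.1 in R 4.3.3, two-sided, with the group alone in the model and Benjamini-Hochberg adjustment over all 12170 probes. The fit was tried on simulated lungs without twin or slide likeness. The changes put in were larger than each matrix difference over the 8 lungs, so changes of the size reported here were not covered. The number of arrays limits the precision. Symbols were looked up in RefSeq's genes for ARS-UI_Ramb_v3.0, a sheep assembly. After removal of group means, same-numbered lungs had correlations of 0.446, 0.275, 0.28 and 0.538 (12148 probes), while other pairings gave -0.449 to 0.203. Removing group means itself pushes the other pairings down where same-numbered lungs are alike. With the labels' twin design the numbers were taken as pairs. Same-numbered lungs also lay side by side in a row of the slide, so twinship and place on the slide cannot be told apart in these correlations. All arrays share 1 slide, whose row was tried as a block. Other alternatives were the twin block, normexp with quantile normalization, median centring, the authors' values, other filters, array weights and each lung left out.

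The members and lists were chosen with earlier results of these data known. Named with values are COL3A1 and MMP14, up to 3 genes of highest signal per role, and the 5 probes per direction with the smallest unadjusted p; the remaining members are given beside them.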

Additional observations from a re-analysis of the deposited data

Results flagged for a closer look

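In 4 of the 60 groups of 4 lungs, 1 lung lay apart from the other 3 by Dixon's test at the 95% level, which chance does in about 1 of 20 groups. Biglycan was low in control lung 4 at -0.78, where the other control lungs lay between 0.01 and 0.03. The MMP2 probe A_70_P026546 was high in aldosterone lung 1 at 0.44, where the next aldosterone lung had -0.37, and control lung 1 was also the highest control at 0.41. ITGB1 was high in aldosterone lung 1 at 2.29, where the next had 1.66, and control lung 1 was again the highest control at 2.25. The decorin probe A_70_P030252 was low in control lung 3 at 2.46, where the next control lung had 2.82.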

How the results depend on the processing

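Adjusted calls in limma were 0 under every alternative run, for the array and for the matrix probes. At an unadjusted p under 0.05 the array had 229 of 12170 probes, and 538 with the twin pairs as a replicate block. It had 342 with the slide row as a block, 180 after normexp and quantile normalization, 937 with array weights and 143 to 420 with single lungs left out. The matrix probes at that level numbered 1 of 30, then 5 with the replicate block, 4 with the slide row as a block and 0 after normexp and quantile normalization. They numbered 5 with array weights, 4 higher and 1 lower, and 1 to 3 with single lungs left out. The block changed no adjusted call. Array-wide the higher and lower probes at that level numbered 156 and 73, but 104 and 93 with arrays centred on their medians, and 88 and 115 in the authors' deposited values. The matrix median stayed positive, from 0.08 after normexp to 0.23 without control lung 4; leaving out ITGB1, an alternative chosen after seeing the data, gave 0.17. Some differences reversed. MMP2 A_70_P026547 gave -0.019 after normexp, -0.031 with median centring, -0.052 in the authors' values and -0.14 with array weights. The alpha-1(XVI) cluster gave -0.0076 in the authors' values and -0.12 with array weights, type VI collagen A_70_P041682 -0.00099 in the authors' values, and type XII -0.20 with array weights. With single lungs left out, ranges that crossed 0 were -0.17 to 0.25 for type XII, -0.25 to 1.35 for MMP7, -0.21 to 0.081 for ITGB1, -0.36 to 0.13, -0.18 to 0.16 and -0.17 to 0.075 for the MMP2 probes, -0.063 to 0.15 for alpha-1(XVI), -0.19 to 0.10 for both DCN probes, -0.089 to 0.26 for type VI, -0.074 to 0.40 for alpha-2(IV), -0.052 to 0.32 for alpha-1(IV) and -0.22 to 0.079 for BGN. The cause of these changes was not tested. Dim probes limit MMP1 and MMP13, which had no test.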

Other observations

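A further 9 probes outside the list share a transcript accession with a matrix probe but no run of 25 bases, so they read other parts of what may be the same transcripts. None had an unadjusted p under 0.05 in limma, and 6 had a higher and 3 a lower mean in aldosterone lungs. For type III collagen they gave 0.39 ± 0.30, 0.19 ± 0.18 and 0.03 ± 0.18, and for alpha-1(I) 0.08 ± 0.18. For alpha-2(V) the outside probe gave -0.07 ± 0.20, where the member gave 0.28 ± 0.18, and for alpha-2(IV) -0.24 ± 0.42, where the member gave 0.16 ± 0.29.

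Among probes with a symbol, those of 2 collagen genes lay outside the list because their descriptions lack the words of the rule. COL1A2, the partner chain of alpha-1(I), gave 0.21 ± 0.23. COL2A1 of cartilage ran from -5.47 to -1.37 in aldosterone lungs and from -4.80 to -1.94 in control lungs, with a difference of -0.29 ± 0.89.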
